A study of Mus musculus with 2 samples.

Results

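The 9 genes described here encode kinases and kinase subunits that act below the calcium-sensing receptor (CaSR) in keratinocytes: the phosphoinositide 3-kinase (PI3K) subunits Pik3r1 and Pik3ca, the phosphatidylinositol 4-phosphate 5-kinases Pip5k1a and Pip5k1c, the kinase Akt1, the Src family kinases Src and Fyn, and the protein kinase C (PKC) isoforms Prkcd and Prkch. They were taken as a fixed list of names, and every probe of each gene was read. By gene symbol or gene identifier the array held 14 such probes among 25697, and 15 probes once outdated names were corrected, as described below for Pip5k1a. The array stands for 17872 named genes in all.

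Epidermis was taken from back skin of C57BL6 mice at postnatal day 5. Control littermates (CON) had the genotype VDR fl/fl CaSR fl/fl, and double knockout mice (DKO) carried the same floxed alleles plus Cre driven by the keratin 14 (K14) promoter, so that both the vitamin D receptor (VDR) and CaSR were to be removed from K14-expressing keratinocytes while other cells of the tissue keep both genes. The animals of both groups therefore share the floxed alleles and differ in Cre. RNA of 3 mice was combined for each genotype and each pool was read on 1 Illumina array, so the spread between mice is not visible and no difference below has a replicate check or a test. The titles, which name the loss of both receptors, were followed over a protocol line that speaks of a VDR knockout only.

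CaSR is a G protein-coupled receptor for extracellular calcium. In keratinocytes, a rise in calcium is known to act through it and through Src family kinases to gather E-cadherin, catenins and PI3K into a complex at the cell membrane. There PIP5K makes phosphatidylinositol 4,5-bisphosphate, PI3K converts this lipid into the trisphosphate that recruits AKT and phospholipase C, and phospholipase C releases the second messengers that open calcium stores and activate PKC. AKT supports keratinocyte survival, and the delta and eta isoforms of PKC are known for their part in terminal differentiation.

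VDR is a transcription factor, so the promoters of the 9 genes were read for its motifs. RefSeq promoters (build GRCm38.p6) were found for 8 of the 9 genes, Prkch having no entry, with 11 start sites in all. The 250 bases before each start were searched on both strands for 4 hexamers of the VDR element (AGGTCA or AGTTCA or GGGTCA or GGTTCA), for a direct repeat of those hexamers with 3 bases between (DR3), for the GC box GGGCGG, for the AP-1 site TGANTCA and for the FOXO site TGTTTAC. A VDR hexamer was found at 1 of the 11 starts, against 38.6% of 32851 promoters. The DR3 was found at 0 of 11, and at 0.0396% of all promoters. GGGCGG was found at 7 of 11, against 32.7% of all, TGANTCA at 1 (the Pik3ca start), against 6.75%, and TGTTTAC at 1 (the upstream Akt1 start), against 3.17%. Both Pik3r1 starts and the Src start are shown because these genes differed most between the arrays among the detected members, the first Prkcd start because that gene lay near 0 with the same number of GC boxes as the upstream Pik3r1 start, and the upstream Akt1 start because it alone held VDR hexamers. Capitals mark GGGCGG and the VDR hexamers on either strand, and no VDR hexamer overlapped a GC box. All are written 5′ to 3′ on the gene's strand and end at the base before the start.
Pik3r1 upstream start, chr13:101768218-101768467, minus strand: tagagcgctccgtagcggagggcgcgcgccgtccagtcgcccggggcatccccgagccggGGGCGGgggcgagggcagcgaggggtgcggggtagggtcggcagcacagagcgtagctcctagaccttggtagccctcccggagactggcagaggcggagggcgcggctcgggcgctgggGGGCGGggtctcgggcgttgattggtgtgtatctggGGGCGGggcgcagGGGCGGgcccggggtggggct
Pik3r1 start within the gene, chr13:101692631-101692880, minus strand: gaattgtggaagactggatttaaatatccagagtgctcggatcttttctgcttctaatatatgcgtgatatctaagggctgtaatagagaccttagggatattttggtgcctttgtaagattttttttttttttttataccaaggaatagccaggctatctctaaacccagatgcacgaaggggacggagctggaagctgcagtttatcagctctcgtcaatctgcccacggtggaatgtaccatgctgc
Src, chr2:157424043-157424292, plus strand: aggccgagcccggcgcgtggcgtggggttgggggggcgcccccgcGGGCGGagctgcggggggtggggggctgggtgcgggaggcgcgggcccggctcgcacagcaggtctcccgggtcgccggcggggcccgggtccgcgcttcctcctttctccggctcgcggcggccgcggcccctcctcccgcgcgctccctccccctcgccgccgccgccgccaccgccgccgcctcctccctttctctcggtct
Prkcd first start, chr14:30626209-30626458, minus strand: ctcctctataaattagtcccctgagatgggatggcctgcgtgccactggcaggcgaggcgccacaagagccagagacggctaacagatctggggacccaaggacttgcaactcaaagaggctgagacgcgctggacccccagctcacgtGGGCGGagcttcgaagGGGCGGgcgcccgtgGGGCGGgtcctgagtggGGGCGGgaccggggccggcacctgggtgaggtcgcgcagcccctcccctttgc
Akt1 upstream start, chr12:112674885-112675134, minus strand: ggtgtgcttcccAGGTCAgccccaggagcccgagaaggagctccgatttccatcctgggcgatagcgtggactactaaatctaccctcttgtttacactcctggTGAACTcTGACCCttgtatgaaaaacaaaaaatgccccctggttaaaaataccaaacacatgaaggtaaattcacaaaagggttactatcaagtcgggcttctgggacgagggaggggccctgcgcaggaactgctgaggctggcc
The upstream Pik3r1 start and the Prkcd start each held 4 GC boxes and the Src start 1, while the Pik3r1 start within the gene held none. The GC content was 76.4% at the upstream Pik3r1 start and 42.4% at the one within the gene. It was 82.8% at the Src start, 67.6% at the Prkcd start and 52% at the upstream Akt1 start, against a median of 52.4% over all promoters. The motif shares above were not adjusted for GC content. The Akt1 VDR hexamers began 238, 146 and 139 bases before the start. A matching sequence is a description and not a binding site.

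Signals below are log2 values after background correction and quantile normalization, differences are DKO minus CON on that scale, and folds compare the same signals without the log. Detection required a p-value under 0.01, which sets a probe against negative controls of the same array and does not compare the groups. On CON 41.9% of probes were detected and on DKO 40.6%. Over 8472 detected genes the median difference was -0.02 and the central 95% ran from -0.84 to 0.80. Where a gene had several detected probes, their differences scattered with a pooled SD of 0.30 (2047 genes). This is scatter between probes read on the same arrays, and it holds no spread between mice, pools or arrays. The 3 Vdr probes, all detected, read 10.17, 9.67 and 6.68 on CON and 10.06, 9.43 and 5.87 on DKO, differences of -0.12, -0.24 and -0.82. The Casr probe was not detected on either array, with a raw signal of 145 on CON and 116 on DKO. The tables do not place those probes within or outside the floxed exons, so they check nothing.

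Of the 9 kinase genes, 5 were detected and 4 were not. Pik3r1 and Src were lower in DKO, and Pip5k1a, Prkcd and Prkch differed by less than 0.1 in either direction. Of the 5, 1 gene (Pik3r1) was at least 1.5-fold lower, against 7.37% of all detected genes, and 0 were at least 1.5-fold higher, against 6.09%. Of all genes past 1.5-fold 54.7% were lower, and 70.7% when the arrays were scaled to a common median. None of the 5 reached 2-fold, which 1.39% of detected genes passed in the lower and 1.05% in the higher direction. The median over the 5 was -0.09, with 3 of 5 lower against 52.6% of all detected genes, so neither the count nor the median sets these genes apart as a group. In bulk epidermis, fewer cells of a type and less RNA per cell cannot be told apart.

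**Figure D1:**
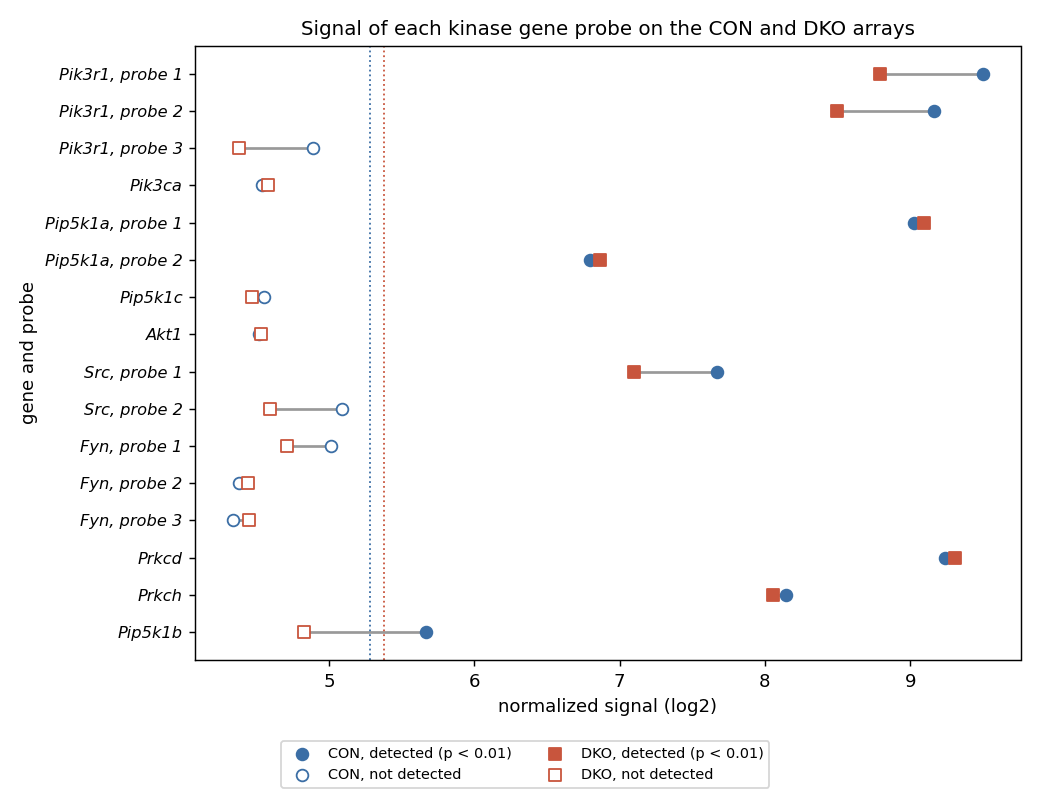
Normalized log2 signal (x axis) of each probe of the 9 kinase genes and of Pip5k1b (y axis) on the 1 CON array (circles) and the 1 DKO array (squares); filled points were detected, open points were not, probes of a gene are ordered by their CON signal, and dotted lines mark the lowest detected signal on each array. Both detected Pik3r1 probes and the detected Src probe lie to the left in DKO, while both probes of Pip5k1a and those of Prkcd and Prkch nearly coincide.

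Pik3r1 encodes the regulatory subunits (p85alpha and the shorter p55alpha and p50alpha) that bind phosphorylated tyrosines and hold the catalytic subunit of PI3K. Its brightest probe read 9.50 on CON and 8.79 on DKO, from raw signals of 880.5 and 521.7, which is a difference of -0.71, or 1.64-fold lower. A second detected probe read 9.17 and 8.50, from raw signals of 728.6 and 448.5, a difference of -0.67. Both detected probes thus gave nearly the same difference, apart by less than the SD between probes of a gene. The third Pik3r1 probe, listed under the same transcript as the brightest, was not detected on either array, with raw signals of 141.4 and 122.4. Of all detected genes 4.45% had a lower difference than Pik3r1, which lay inside the central 95% of genes. In the authors' deposited table the brightest probe differed by -0.58, just short of 1.5-fold.

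Pik3ca, the alpha catalytic subunit (p110alpha) that pairs with these regulatory subunits, was not detected by its only probe. The raw signal was 130.4 on CON and 130.8 on DKO, with detection p-values of 0.313 and 0.256. The signal at this probe therefore lay near background on both arrays, and the level of the transcript is not known from it.

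The rest of the PI3K list was read in the same way. Of its 16 genes, 15 were on the array and 9 were detected, 7 of them lower and 2 higher in DKO, with a median of -0.28. For this and the lists below, 52.6% of all detected genes were lower and 47.1% higher. The PI3K median rests partly on genes not detected on DKO. It was -0.04 when both arrays had to be detected and -0.06 with dim values at the lowest detected signal. Pik3cb, another catalytic subunit (p110beta), read 9.30 on CON and 8.59 on DKO, 1.64-fold lower, the same fold as Pik3r1. Pik3cd, the catalytic subunit known from leukocytes, read 5.39 on CON, was not detected on DKO and was at least 1.01-fold lower. Pik3ip1, an inhibitory partner of the catalytic subunits, read 5.76 on CON, was not detected on DKO and was at least 1.31-fold lower. Among the other regulatory genes, Pik3r3 differed by -0.03, and the detected probes of Pik3r2 had opposite signs, 0.30 at the brighter and -0.15 at the other.

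Pip5k1a and Pip5k1b encode the alpha and beta type I PIP5K enzymes, and their names are crossed between the array and RefSeq. The probe printed as Pip5k1a on the array carries the accession that RefSeq now assigns to Pip5k1b, and 2 probes printed as Pip5k1b carry an accession of Pip5k1a. None of these 3 probes has a gene identifier in the tables, so the accession decides. By accession, the brighter Pip5k1a probe read 9.03 on CON and 9.10 on DKO (raw 671.2 and 617.1), a difference of 0.07, and the other read 6.79 and 6.87 (raw 228.6 and 221.9), also a difference of 0.07. Both probes of Pip5k1a were thus nearly level between the arrays. The probe that belongs to Pip5k1b read 5.67 on CON, was not detected on DKO (raw 164.9 and 137.4, detection p-value 0.0664 on DKO) and was at least 1.22-fold lower. Taken by the printed symbol, Pip5k1a would appear as lower by 0.84 on the log2 scale, so the sign and the size of this member rest on the name.

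Pip5k1c, the gamma enzyme, which is known to supply the lipid at focal adhesions, was not detected by its only probe. Its raw signal was 131 on CON and 126.7 on DKO. Of the 12 genes in the phosphoinositide kinase list 9 were detected, 5 lower and 4 higher, with a median of -0.10. Pip5k1b is bounded only at 1.22-fold, and Pip4k2b, a type II kinase that phosphorylates phosphatidylinositol 5-phosphate, read 8.38 on CON and 7.77 on DKO and was 1.53-fold lower.

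Among the phosphatases that remove these phosphates, 13 of 23 genes were detected, 7 lower and 6 higher, with a median of -0.04. Inpp5k, a 5-phosphatase, was 1.66-fold higher in DKO, reading 6.94 on CON and 7.67 on DKO.

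Akt1 encodes the kinase that the PI3K product recruits to the membrane. Its only probe was not detected, with raw signals of 129.9 on CON and 129 on DKO and detection p-values of 0.336 and 0.335. Akt2 was not detected either. Of the 24 genes in the list of AKT kinases, activators and substrates, 14 were detected, 10 lower and 4 higher, with a median of -0.18. Gsk3b, a kinase that AKT inhibits by phosphorylation, read 6.42 on CON and 5.47 on DKO and was 1.93-fold lower, although its DKO signal lay just above the lowest detected signal of 5.38 and the authors' deposited table gave a difference of -0.42. Pdpk1, which activates AKT, differed by -0.31 at its main probe and by 0.22 at its other detected probe.

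Src encodes the founding member of the Src family of membrane-anchored tyrosine kinases. Its detected probe read 7.67 on CON and 7.10 on DKO, from raw signals of 326.4 and 239.7, which is a difference of -0.57, or 1.48-fold lower. Src thus fell just short of the 1.5-fold line, with 7.76% of detected genes lower still. The other Src probe was not detected on either array at the threshold used, with raw signals of 146.7 and 131 and a detection p-value of 0.0201 on CON. In the authors' deposited table Src differed by -0.37.

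Fyn, a Src family kinase that is known to be needed for full differentiation of mouse keratinocytes and is also strongly expressed in T cells, was not detected by any of its 3 probes. Raw signals ranged from 121 to 144.7 on CON and from 125.5 to 134.5 on DKO. The lowest detection p-value among them was 0.0388, on CON. No direction can be read for Fyn.

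Of the 21 genes in the list of Src family kinases and regulators 12 were detected, 7 lower and 5 higher, with a median of -0.13. Csk, the kinase that phosphorylates the inhibitory tyrosine of Src, differed by -0.13. Ptk6, a Src-related kinase of differentiating epithelia, was 1.86-fold higher, reading 6.16 on CON and 7.05 on DKO. Lck, the Src family kinase of T cells, was 1.63-fold lower, reading 6.71 and 6.01. Of the 9 other T cell markers 5 were detected, 3 lower and 2 higher, with a median of -0.41, Zap70 among those not detected, and a summed normalized signal of 1835 on CON and 1654 on DKO. Cd3d and Cd3g, chains of the T cell receptor complex, each differed by 0.03, while Thy1 differed by -0.55. The part of T cells in the Lck difference was not tested.

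Prkcd encodes PKC delta, a calcium-independent isoform that diacylglycerol activates. Its only probe read 9.24 on CON and 9.30 on DKO, from raw signals of 762.5 and 697.5, a difference of 0.06. Prkch encodes PKC eta, an isoform of the upper epidermal layers. Its only probe read 8.14 and 8.05, from raw signals of 412.2 and 360.2, a difference of -0.09. Both isoforms were clearly above background and differed by less than the SD between probes of a gene, and each rests on a single probe.

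Of the 18 genes in the list of PKC and related kinases 11 were detected, 4 lower and 7 higher, with a median of 0.02. Prkca, Prkce and Prkci were not detected. Prkd2, a protein kinase D, differed by 0.39. Marcksl1, a relative of the PKC substrate Marcks, read 8.27 on CON and 7.42 on DKO and was 1.80-fold lower, and its 3 detected probes lay between -0.94 and -0.85. Marcks itself differed by -0.31.

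**Figure D2:**
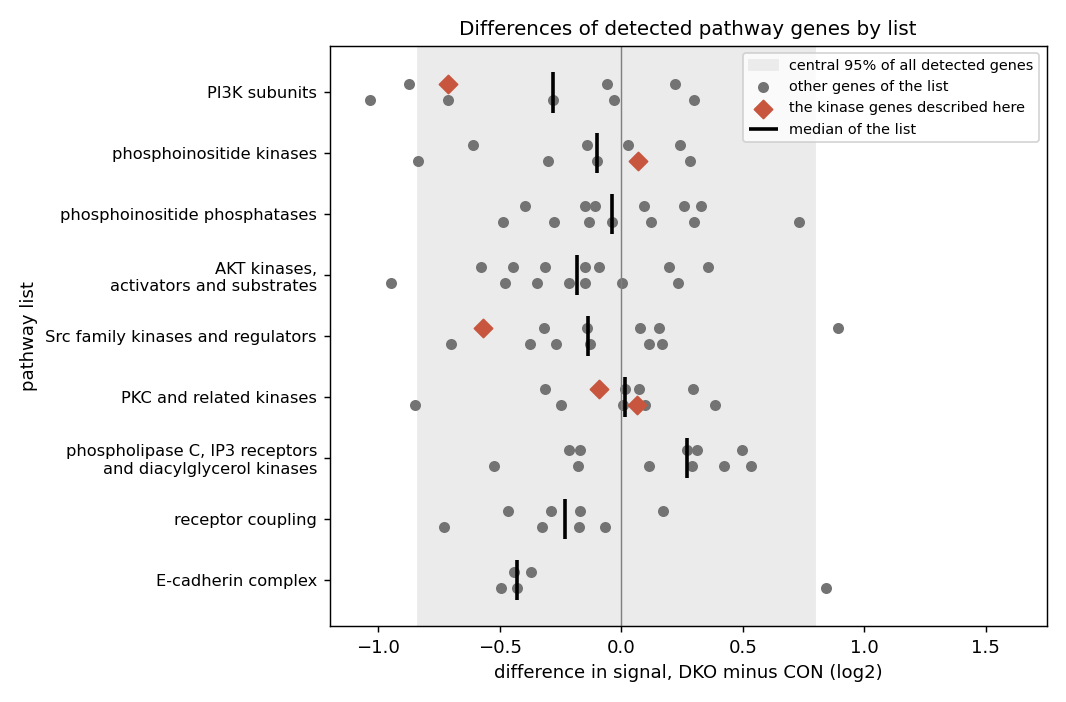
Log2 difference in signal, DKO minus CON (x axis), of every detected gene in the 9 pathway lists (y axis); diamonds are the 5 detected kinase genes, grey points the other genes, black bars the median of each list, and the shaded band the central 95% of all detected genes. Pik3r1 and Src sit on the left of their lists at -0.71 and -0.57, while Pip5k1a, Prkcd and Prkch lie close to 0.

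Upstream of the kinases, 8 of 14 receptor coupling genes were detected, 7 lower and 1 higher, with a median of -0.23, where 52.6% of all detected genes were lower. Gna13, a G protein alpha subunit, was 1.66-fold lower, reading 8.72 on CON and 7.99 on DKO, while Gnaq and Gna11, which activate phospholipase C, differed by -0.07 and -0.29. Of 26 genes for phospholipases C, IP3 receptors and diacylglycerol kinases, 11 were detected, 7 higher and 4 lower, with a median of 0.27 (0.14 under scaling to a common median), where 47.1% of all detected genes were higher. None of these 11 reached 1.5-fold at its brightest probe. The diacylglycerol kinases, which remove the PKC activator diacylglycerol, were split, Dgkq differing by 0.53, Dgka by 0.50 and Dgkz by -0.52. The 3 detected probes of Dgka ran from 0.50 to 0.95, and their mean of 0.66 passed 1.5-fold. Those of Dgkz, also 3, ran from -0.52 to -0.07.

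The E-cadherin complex to which PI3K is recruited had 5 of 7 genes detected, 4 lower and 1 higher, with a median of -0.43. Plakoglobin (Jup), a catenin shared by desmosomes, was 1.79-fold higher, reading 7.08 on CON and 7.92 on DKO.

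Over all 9 lists without the 9 kinase genes, 87 of 152 genes were detected, 52 lower and 35 higher, with a median of -0.13 against -0.02 over all detected genes. Of the 87, 9 (10.3%) were at least 1.5-fold lower, against 7.37% of all detected genes, and 3 (3.45%) at least 1.5-fold higher, against 6.09%. When dim values were set to the lowest detected signal, 6 of the 87 (6.90%) remained at least 1.5-fold lower, against 5.43% of all genes. These shares lie near the background and set the pathway apart in neither direction. The sizes depend on the processing. Of the genes named above from these lists, 11 passed 1.5-fold by normalized signal, Pip5k1b and the kinase genes aside. Pik3cd and Pik3ip1 did so with a DKO signal that was not detected, and 9 genes passed with dim values at the lowest detected signal. Of the 11, 2 (Pik3cb and Marcksl1) also passed it in the authors' deposited table and 0 without background correction.

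Markers of the cells that epidermis can hold were read beside the kinases, by the brightest probe of each gene. Over all detected genes 52.6% were lower and 47.1% higher. All 7 basal keratinocyte markers were detected, 3 lower and 3 higher, with Krt14 level at the top of the signal range, Itga6 at -0.45 and Trp63 at -0.29. Their summed normalized signal on DKO was 1.01 times that on CON, a sum that the bright keratins dominate. Of 7 markers of differentiated keratinocytes 5 were detected, 3 higher and 2 lower, with a summed ratio of 1.06 and a median of 0.01. Dsc1 lay at 0.91, Krt1 at 0.64, Krt10 at 0.01, Lor at -0.07 and Ivl at -0.44. All 6 detected genes of the 7 on the list for Langerhans and other antigen-presenting cells were higher at the brightest probe, with a ratio of 1.15. Detected probes of Cd86 and H2-Ab1 differed in sign, from -0.25 to 0.35 and from -0.04 to 0.38. Of 13 hair follicle markers 9 were detected, 8 of them lower, with a summed signal on DKO of 0.412 times that on CON and with Foxn1, Krt25 and Lef1 not detected. Bright keratins dominate this sum too. Of the detected markers other than keratins, Sox9 lay at -1.1, Msx2 at -0.70, Gata3 at -0.32 and Shh at 0.02. The melanocyte list had 4 of 7 genes detected, all 4 lower at the brightest probe, with a ratio of 0.761 and with Mitf and Tyr not detected. Detected probes of Pmel and Tyrp1 differed in sign, from -0.61 to 0.26 and from -0.27 to 0.13. Endothelial markers were detected for 0 of 5 genes, fibroblast markers for 1 of 6, skeletal muscle markers for 1 of 5 and those of macrophages, neutrophils and mast cells for 1 of 8. The part of any of these cells in the Pik3r1 and Src differences was not tested.

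The differences of Pik3r1 and Src kept their sign under all 10 alternatives in processing, between -0.84 and -0.58 for Pik3r1 and between -0.67 and -0.34 for Src. Detection filters and the bound cannot move a probe detected on both arrays. The values moved only without background correction, with an offset of 50, under median scaling, in the authors' deposited table and, for Pik3r1, by the mean over probes. Pip5k1a and Prkcd lay above 0 except under scaling to a common median, where they differed by -0.08 and -0.09, and except for Pip5k1a when named by the printed symbol. Under that scaling the median of all genes moved by -0.11, and relative to it Pip5k1a and Prkcd lay at 0.04 each, Pik3r1 at -0.72 and Src at -0.55. The raw signals of DKO were lower in general, with a median ratio to CON of 0.931 over 11221 detected probes.

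**Figure D3:**
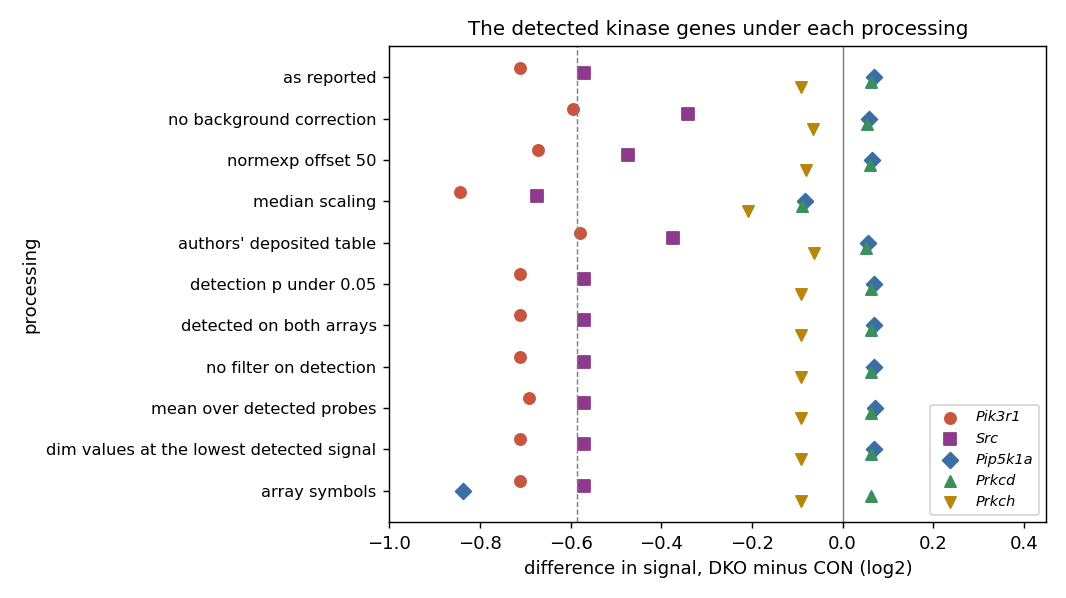
Log2 difference in signal, DKO minus CON (x axis), of the 5 detected kinase genes under the processing reported here and 10 alternatives (y axis); 1 point per gene and setting, with a solid line at 0 and a dashed line at 1.5-fold lower. Pik3r1 stays between -0.84 and -0.58 and Src between -0.67 and -0.34, and Pip5k1a moves to -0.84 when the symbol printed on the array is used.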

How the data were processed

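RNA of 3 mice per genotype was combined and read on 1 Illumina array per group, with GenomeStudio 2011.1 named in the submitters' processing notes. The deposited tables hold, for each probe, the raw signal intensity with background still in it, a detection p-value, and an intensity normalized by the authors on a linear scale by a method the sources do not name. Per the file headers, a line above the column names ties each array to its group.

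Raw intensities went through limma 3.58.1 under R 4.3.3 (the steps of neqc: normexp from the detection p-values, offset 16), quantile normalized and put on the log2 scale. The steps were tested on simulated data. The brightest probe stands for a gene, and a gene entered when that probe had a detection p-value under 0.01 on at least 1 array. Where the dimmer array was not detected, the fold is a bound against the higher of the probe's own signal and the lowest detected signal there. Probes were named by gene identifier, then accession, then symbol through a RefSeq table of GRCm38.p6, with 322 of 25697 keeping the array's name. Positions of whole genes are not printed, and the promoter positions refer to build GRCm38.p6.

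With 1 array per group no test was possible, counts use fixed folds of 1.5 and 2, and precision is limited by the number of arrays. With only 2 arrays, no likeness between genes across samples was computed. The genes and lists were chosen with earlier results of these data known. Named genes are all 9 kinase genes, Vdr, Casr and, per list, other detected genes past 1.5-fold, or the 3 with the largest difference where none was. Akt2, Pik3r2, Pik3r3, Csk, Pdpk1, Prkca, Prkce, Prkci, Prkd2, Marcks, Gnaq, Gna11 and single cell markers were named outside that rule for their role, after values were seen, and some list genes are not reported here. Alternatives were no background correction, an offset of 50, median scaling, the authors' deposited table, other detection filters, the mean over probes, dim values at their bound and, chosen after seeing the data, symbols as printed on the array.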

Additional observations from a re-analysis of the deposited data

How the results depend on the processing

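No paired analysis was possible because each group has 1 array, and for the same reason no array could be left out. The detected kinase genes numbered 5, and 9 without the filter on detection. Of these, 3 were lower, against 5 with median scaling and 5 without the filter. At least 1.5-fold lower was 1 gene, against 2 under median scaling, 0 by the authors' own normalized values and 2 with array symbols, where the median also moved from -0.09 to -0.57 because another probe then stands for Pip5k1a. With array symbols Pip5k1b changed sign, from -0.84 to 0.07. Genes at least 1.5-fold higher numbered 516, and 124 without background correction, 251 with an offset of 50 and 125 in the authors' table, and those lower numbered 624, and 127, 270 and 131. Median scaling gave 370 higher and 894 lower. At 2-fold, higher genes numbered 89, and 23, 43 and 24 in that order, and 57 when both arrays had to be detected. Lower genes at 2-fold numbered 118, and 27, 58, 28 and 77. Values that carry background or a larger offset have smaller ratios by construction. Of 59 alternative values of the detected kinase genes and Pip5k1b, 53 moved by less than the SD between probes of a gene. Of 134 values of the other named genes 117 did so and 17 moved further. Many values in both counts could not move, because detection filters and the bound leave a probe detected on both arrays as it is. All 100 alternative list medians also moved by less than that SD. It describes single genes, and every list median except that of the E-cadherin complex was itself smaller, so this is a weak check. The PI3K list median of -0.28 became -0.04 when both arrays had to be detected. Of the 11 other named genes past 1.5-fold, 0 stayed past it without background correction, 7 with an offset of 50 and 2 (Pik3cb and Marcksl1) in the authors' deposited table, where Ptk6 differed by 0.48, Lck by -0.36, Inpp5k by 0.47 and Jup by 0.57. With dim values at their bound Pik3cd differed by -0.02 and Pik3ip1 by -0.39, and signal over background limits every gene read near 5 on the log2 scale.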
